A study of Macaca fascicularis with 11 samples.

Results

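The trophoblast of wild-type cynomolgus macaque embryos grown in vitro was compared between Day 14 and Day 10 by single-cell RNA sequencing. Trophoblast cells were those in which the mean of ln(1 + 10000 × UMI / total UMIs of the cell) over 7 trophoblast genes (CGA, XAGE3, PGF, KRT7, HSD3B1, VGLL1 and INSL4) was higher than the same mean over 5 epiblast genes, 7 mesenchyme genes and 6 endoderm genes. The rule took 4036 of the 33330 cells of the series, which lie among the 5888 cells of the 4 libraries compared. The members were thus selected on measured levels of these genes. A UMI is a tag added to each captured transcript before amplification, and counting tags leaves out PCR copies.

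The series holds 11 libraries of wild-type embryos and of ISL1 hypomorphic mutants from embryonic Day 10 to Day 14. Wild-type embryos came from frozen blastocysts and carried no edit. Day 10 was represented by a library of 2 embryos (batch 1) and a library of 3 embryos (batch 2), and Day 14 by 2 libraries of 2 embryos each. The wild-type Day 12 libraries (1 and 2 embryos) and the 5 mutant libraries were used as further points of reference. The mutants came from zygotes injected with guide RNAs against ISL1 and Cas9 (mRNA per the labels, protein per the study's methods), are mosaic, and are represented at Day 10 by 1 library of 3 embryos. No library separates its embryos, so p-values measure the spread between pools of embryos.

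Trophoblast is the outer epithelium of the embryo, the lineage that attaches to the uterus and builds the fetal part of the placenta. Its stem-like cytotrophoblast cells keep an epithelial program and give rise on one side to the hormone-secreting syncytiotrophoblast, formed by cell fusion, and on the other to invasive extravillous cells, which enter maternal tissue and its vessels and take up features of endothelium. In culture the blastocyst attaches to the dish, and its trophoblast spreads there without maternal tissue.

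The cut was sharp at Day 14 and not at Day 10. In the Day 10 libraries 394 of 658 cells (59.9%, exact 95% binomial interval 56.0% to 63.6%) and 345 of 670 cells (51.5%, 47.6% to 55.3%) were taken, and at Day 14 2411 of 3176 cells (75.9%, 74.4% to 77.4%) and 886 of 1384 cells (64.0%, 61.4% to 66.6%), intervals that cover counting error only. The trophoblast score of a member exceeded its next highest score by a median of 0.83 and 0.51 at Day 10 and of 1.69 and 1.38 at Day 14. At Day 10, 15 and 23 members lay within 0.1 of the cut and 11 and 26 cells lay just outside it, against 2 and 3 members and 3 and 3 cells outside at Day 14. A UMI of POU5F1, the pluripotency factor of the epiblast, was present in 32.5% and 50.1% of members at Day 10 and in 10.3% and 1.02% at Day 14. The part of these unequal margins in the results was not tested, but the counts of calls and the fold changes of the genes named by rule were recomputed with the 276, 175, 2397 and 872 cells whose trophoblast score led by at least 0.5.

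**Figure D1:**
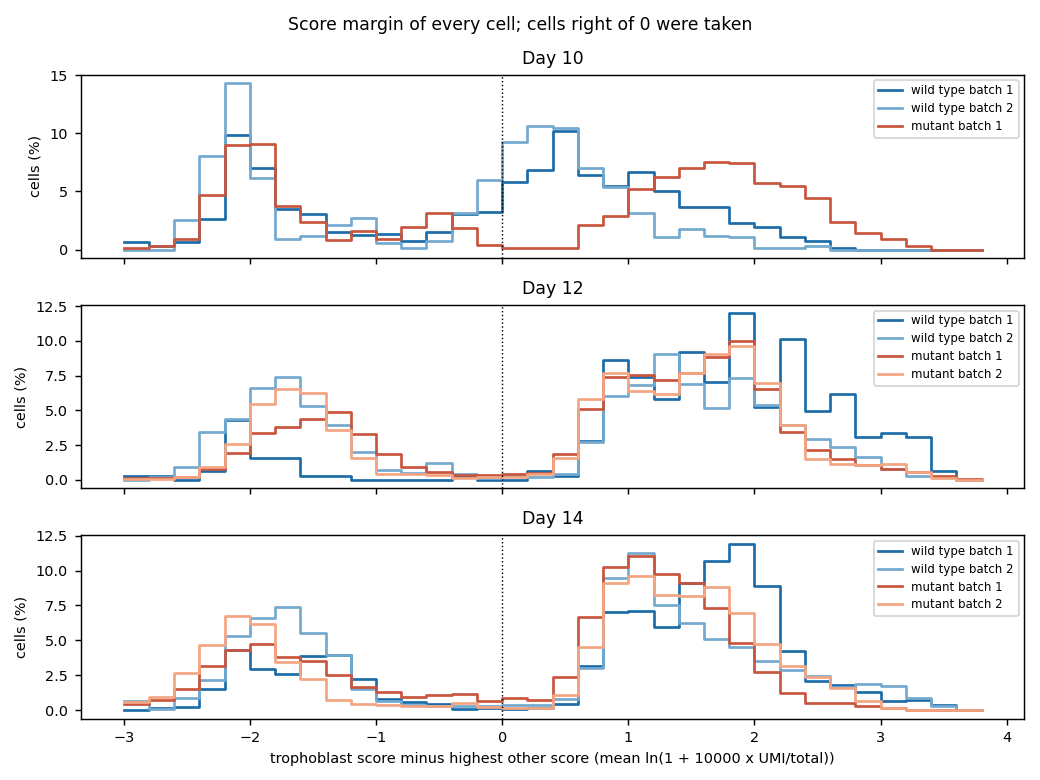
Share of the cells of each library (y axis, %) by the difference between the trophoblast score and the highest of the 3 other scores (x axis, in units of the mean ln(1 + 10000 × UMI / total)), with 1 panel per day, blue lines for wild-type and red lines for mutant libraries, and the cut at 0 dotted. The wild-type Day 10 cells run across the cut without a gap, whereas at Day 12 and Day 14, and in the mutant Day 10 library, few cells lie between 0 and 0.5.

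Depth was lowest in the second Day 14 library. Members held a median of 65339 and 96226 UMIs per cell at Day 10 and of 48780 and 27568.5 at Day 14, and their summed UMIs ranged from 25790796 to 127320297 per library. Mitochondrially encoded genes took 6.43%, 8.00%, 2.57% and 6.82% of these UMIs, so the first Day 14 library stood apart, and SoupX had removed 0.8%, 0.195%, 2.98% and 0.457%. No barcode was shared among the 4 libraries other than 1 between a Day 10 and a Day 14 library. No doublet caller was run. The cells that scored highest for mesenchyme numbered 0 and 0 at Day 10 and 158 and 350 at Day 14.

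The 7 trophoblast genes that chose the cells were detected in all 4 libraries, and their levels are given as a description without a test. CGA, the alpha subunit shared by chorionic gonadotropin and the pituitary glycoprotein hormones, stood at 2790.4 and 1389 CPM (UMIs scaled to a library sum of 1e6) in the Day 10 libraries and measured 6984 and 11118 CPM at Day 14. Both Day 14 libraries lay above both Day 10 libraries. INSL4, a placental relaxin-family peptide, stood at 63.1 and 18.7 CPM and 2109 and 448 CPM in the same order. KRT7, a keratin of simple epithelia, stood at 182 and 135 CPM and 359.7 and 272 CPM. XAGE3, a cancer-testis antigen expressed in placenta, stood at 1416 and 598 CPM and 1662 and 2218 CPM, and VGLL1, a cofactor of TEAD factors, at 367 and 196 CPM and 456 and 707 CPM. The days overlapped for PGF, the placental growth factor (438 and 425 CPM against 266 and 472 CPM), and for HSD3B1, an enzyme of progesterone synthesis (549 and 1095 CPM against 557 and 712 CPM). SoupX was tuned on chorionic gonadotropin reads in POU5F1-positive cells, so the CGA levels depend on that correction more directly than others.

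Transcripts of caudal-type factors and several epithelial genes were lower at Day 14, and 7 transcripts known from invasive and endothelial-like trophoblast, among them LAIR2 and CDH5, were higher. UMIs were summed over the cells of each library and compared with edgeR's quasi-likelihood test over 12365 genes. At a false discovery rate of 5%, 337 genes passed, or 2.73% of those tested, 151 of them higher at Day 14 (1.22%) and 186 lower (1.5%). The libraries of the days did not overlap for any of the 337 genes, as was the case for 51.8% of all genes tested, and the median log2 fold change over all genes was 0.003. With the batch as a block 521 genes passed (4.21%), 297 of them among the 337. At a false discovery rate of 1%, 5 genes passed (0.0404%), among them CDX1, S100A14, CDX2 and CLU. Symbols could be assigned to 83 of the 337 genes. Symbols came only from the study's own tables of selected genes, so the named genes are no neutral sample, and 9.86% of the 842 tested genes with a symbol passed against 2.2% of the rest. Every listed gene that was tested has a symbol. The list shares below are set against all genes tested, although 9.86% is the nearer background. Among lists with a call, the hormone, matrix, growth factor, glycolysis and lipid shares lie under 9.86%. The share of the stress list (10%) is close to it. APOA1, COL1A1 and DNMT3B are among the 83, but they belong to the sets that chose the cells and are left aside. In every alternative that gave a value, each of the 337 genes kept its direction. That outcome was nearly fixed in advance, as their days did not overlap and the alternatives reuse the same libraries. No gene passed when either Day 10 library was left out, however, with 1967 and 1508 genes at an unadjusted p under 0.05, so every call below rests on both Day 10 libraries. The number of calls rose without the second Day 14 library, the shallowest, and changed little without the first, which had the lowest mitochondrial share. The genes called without the first were in part different ones, and not all of the 337 were among them.

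The calls among transcripts of invasive and endothelial-like trophoblast were all rises. Of the 25 genes listed, 17 were tested and 7 passed, all of them higher at Day 14 (41.2% against 1.22% of all genes), with a median log2 fold change of 4.11 over the 17 (0.003 over all genes). The study picked many of these genes from the same libraries, so the count is not independent evidence of a direction. LAIR2, a secreted decoy of the collagen receptor LAIR1 that is known from extravillous trophoblast (ENSMFAG00000041384), stood at 2.14 and 3.58 CPM at Day 10 and 1560.3 and 415 CPM at Day 14 (log2 fold change 8.46, standard error 0.95, edgeR adjusted p = 0.0288). Both Day 14 libraries lay far above both Day 10 libraries, although they differed from each other more than the Day 10 libraries did. ISM2, a secreted protein abundant in placenta (ENSMFAG00000039426), stood at 3.35 and 3.48 CPM and 648 and 124 CPM (log2 fold change 6.85, standard error 1.01, edgeR adjusted p = 0.0426). Both folds depended on the Day 14 libraries. The log2 fold change of LAIR2 was 7.04 without the first Day 14 library and 9.17 without the second, and that of ISM2 5.04 and 7.65. In the cells with the wider score margin they were 7.67 and 6.24.

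Junctional and receptor genes of endothelium were among them. CDH5, the cadherin of endothelial junctions (ENSMFAG00000038308), rose from 5.59 and 2.01 CPM to 129.9 and 124 CPM (log2 fold change 5.02, standard error 0.58, edgeR adjusted p = 0.0302), and the Day 14 libraries were close to each other. PECAM1, an adhesion molecule of endothelial and blood cells (ENSMFAG00000036717), stood at 10.7 and 10.7 CPM and 485 and 155 CPM (log2 fold change 4.92, standard error 0.69, edgeR adjusted p = 0.0414). CLEC1A, a C-type lectin receptor found on endothelium, stood at 8.70 and 6.58 CPM and 159 and 107 CPM (log2 fold change 4.11, standard error 0.38, edgeR adjusted p = 0.0244). The days did not overlap for these genes, and the first Day 14 library was the highest in each. ITGB2, the beta chain of the leukocyte integrins, stood at 1.66 and 0.482 CPM and 93.9 and 39.6 CPM (log2 fold change 5.98, standard error 0.85, edgeR adjusted p = 0.0414). With the wider score margin PECAM1 no longer passed (log2 fold change 4.24). The log2 fold changes of CDH5, CLEC1A and ITGB2 were then 4.41, 3.46 and 5.33, and those calls held. Without the first Day 14 library PECAM1 gave 3.72 and ITGB2 5.08, and without the second PECAM1 gave 5.58. Without the first Day 10 library CDH5 gave 5.99 and ITGB2 7.16, and without the second ITGB2 gave 5.30.

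The remaining 10 tested members of the list did not pass in the main fit. With the batch as a block 11 of the 17 passed, the 7 among them. FN1, the matrix protein fibronectin, gave 4.04 and 1.07 CPM at Day 10 and 203 and 35.6 CPM at Day 14 (log2 fold change 5.58, standard error 1.19, edgeR adjusted p = 0.0710), and SERPINE2, a protease inhibitor, gave 1.45 and 0.482 CPM and 53.4 and 6.86 CPM (log2 fold change 5.02, standard error 1.23, edgeR adjusted p = 0.0897). In both the Day 14 libraries lay above Day 10 but differed severalfold from each other. PLAU, the urokinase protease of invading cells, gave 41.1 and 36.2 CPM and 38.8 and 31.2 CPM, and its libraries overlapped. VWF, the clotting factor made by endothelial cells, gave 0.656 and 1.58 CPM and 0.385 and 1.71 CPM and overlapped as well. TIMP1, an inhibitor of matrix metalloproteinases, passed (0.242 and 0.294 CPM and 7.78 and 12.8 CPM, log2 fold change 5.19, standard error 0.44, edgeR adjusted p = 0.0186), but it is abundant in cells of other types, and its fold change was smaller with the wider margin, where it still passed. A TIMP1 UMI was present in 19% and 8.24% of members at Day 14 and in 62.4% and 69.0% of the cells that scored highest for epiblast. The part of such cells in the TIMP1 sum was not tested.

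**Figure D2:**
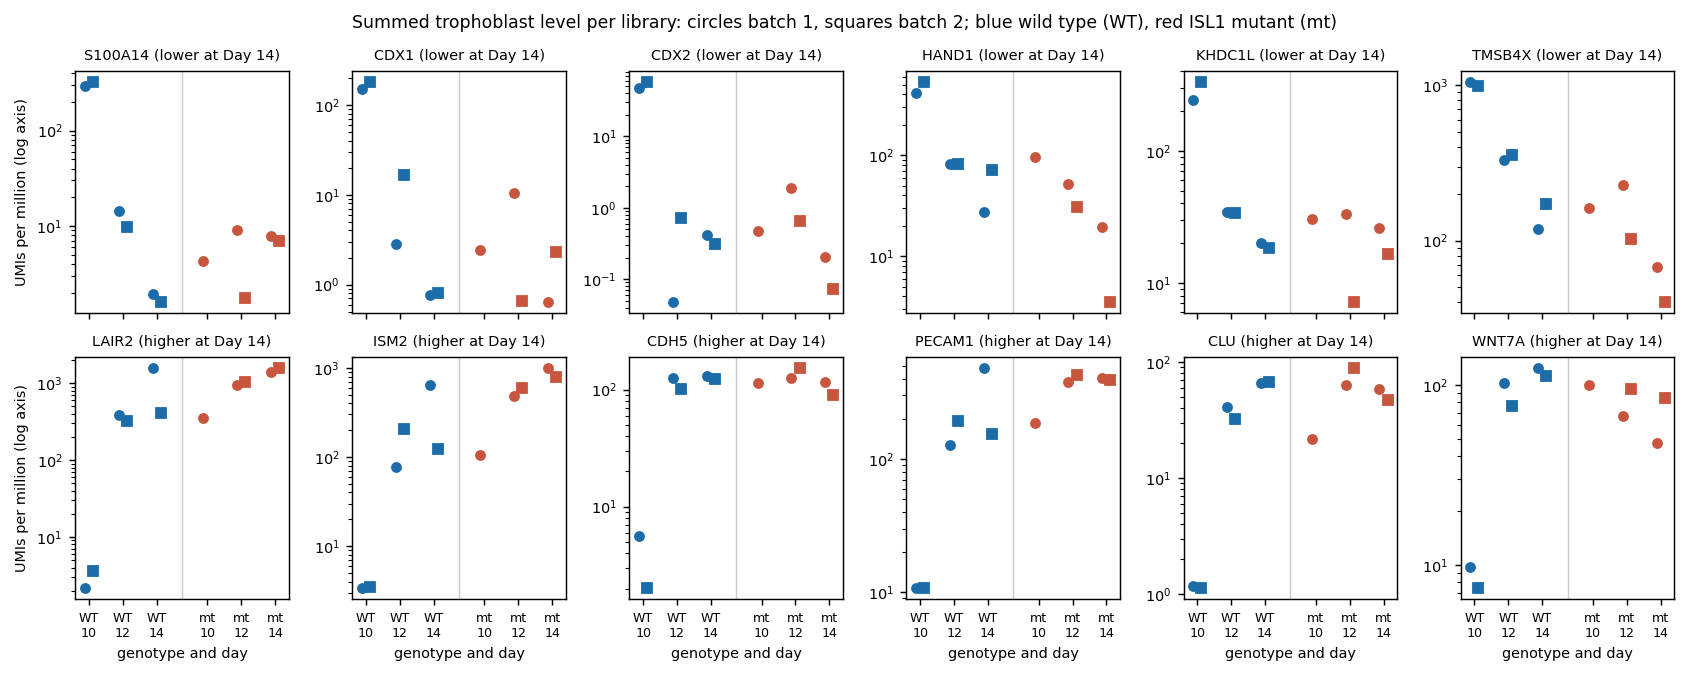
Summed level in trophoblast cells (y axis, CPM, log scale) of 6 genes that fell and 6 that rose, 1 point per library, by genotype and day (x axis; WT wild type, mt ISL1 mutant, circles batch 1, squares batch 2). Wild-type Day 10 stands apart from all the other libraries in each panel, the mutant Day 10 library included, with LAIR2 at 2.14 and 3.58 against 355 and S100A14 at 291 and 324 against 4.33.

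LAIR2, ISM2 and CDH5 were found in a larger share of cells at Day 14, whereas some other genes that rose were found in few. To compare cells at the same depth, each member was thinned to 10000 UMIs, which left out 0 and 1 cells at Day 10 and 212 and 61 at Day 14. At that depth a LAIR2 UMI was found in 1.02% and 0.872% of cells at Day 10 and in 55.9% and 28.4% at Day 14 (unthinned 3.30%, 3.48%, 61.6% and 34.2%). The Day 14 shares stand far above the unthinned 6.08% and 1.77% of the 559 and 113 cells that scored highest for epiblast in these libraries, which had a median of 43904 and 21784 UMIs. ISM2 was found in 2.28% and 2.91% of thinned cells at Day 10 and in 75.0% and 37.8% at Day 14. CDH5 was found in 3.30% and 1.45% at Day 10 and in 53.3% and 56.2% at Day 14, so that here the Day 14 libraries were alike. TIMP1 was found in 5.09% and 4.97% of thinned cells at Day 14 and PITX1, a homeobox factor that also rose, in 9.64% and 22.5%. The transcripts were unevenly spread, and the tenth of thinned cells richest in LAIR2 held 46.6% and 75.9% of its UMIs at Day 14.

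**Figure D3:**
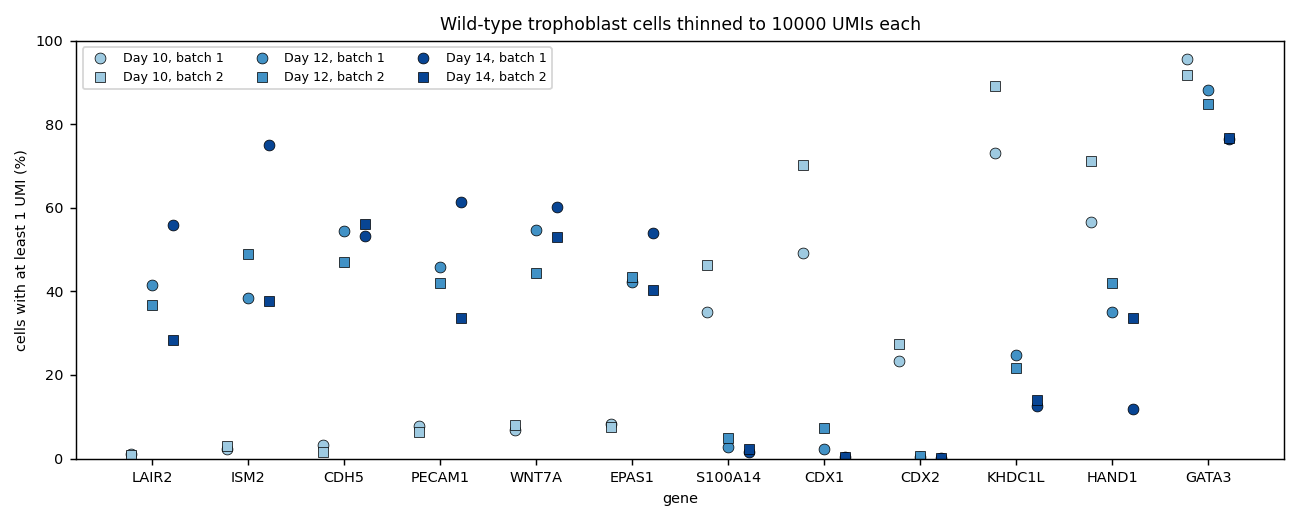
Share of wild-type trophoblast cells with at least 1 UMI (y axis, %) after thinning each cell to 10000 UMIs, for 12 genes (x axis), 1 point per library and darker blue for later days. The genes on the left were found in under 10% of cells at Day 10 and in 28.4% to 75.0% at Day 14, and CDX1 and CDX2 were found in 23.4% to 70.3% at Day 10 and in under 1% at Day 14.

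The transcription factors that fell were CDX2, HAND1 and GATA3. Among 28 trophoblast transcription factors listed, 23 were tested and 4 passed, 3 lower at Day 14 (background 1.5%) and 1 higher (background 1.22%), and the median log2 fold change over the 23 was 0.18. CDX2, the caudal-type homeobox factor that specifies trophectoderm (ENSMFAG00000042692), stood at 48.0 and 58.3 CPM at Day 10 and 0.416 and 0.310 CPM at Day 14 (log2 fold change -7.12, standard error 0.34, edgeR adjusted p = 0.00739). Its relative CDX1 (ENSMFAG00000028943), among the 10 largest falls, stood at 152 and 181 CPM and 0.762 and 0.814 CPM (log2 fold change -7.75, standard error 0.27, edgeR adjusted p = 0.00662). For both genes the libraries of a day were close to each other and the days were far apart.

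The CDX genes were not confined to trophoblast. In the cells that scored highest for epiblast, CDX2 measured 93.9 and 89.3 CPM at Day 10 against 85.9 and 362 CPM at Day 14. Cells of this class thus held the transcript at Day 14, where the members had little. The study reports CDX1 and CDX2 in clusters of amnion and of embryonic mesoderm. The rule has no score for these cell types, and their part in these levels was not tested. In thinned members a CDX2 UMI was found in 23.4% and 27.3% of cells at Day 10 and in 0.227% and 0.242% at Day 14. In the members with the wider score margin its level was lower, at 15.6 and 28.9 CPM at Day 10, and the fall still passed the test (log2 fold change -6.31).

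HAND1, a bHLH factor needed for trophoblast giant cells in mice and also active in extraembryonic mesoderm (ENSMFAG00000000456), stood at 418 and 535 CPM at Day 10 and 27.4 and 71.3 CPM at Day 14 (log2 fold change -3.35, standard error 0.46, edgeR adjusted p = 0.0413). With the wider margin it no longer passed (log2 fold change -2.45). Without the second Day 14 library it was -4.04. GATA3, a zinc finger factor of trophoblast identity (ENSMFAG00000042633), stood at 453 and 467 CPM and 186 and 207 CPM (log2 fold change -1.26, standard error 0.20, edgeR adjusted p = 0.0490), a 2.40-fold fall, and with the batch as a block its edgeR adjusted p was 0.0551 (range over all alternatives 5.09e-05 to 0.320). The transcript was still common at Day 14, as 76.5% and 76.7% of thinned cells held a GATA3 UMI. The falls of HAND1 and GATA3 were not confined to the members. In the cells that scored highest for epiblast, HAND1 stood at 724 and 420 CPM at Day 10 and 189 and 324 CPM at Day 14. GATA3 stood there at 132 and 64.2 CPM and 12.8 and 43.3 CPM. EPAS1, the oxygen-regulated factor HIF-2 alpha, rose from 10.8 and 7.17 CPM to 120.4 and 60.6 CPM (log2 fold change 3.32, standard error 0.50, edgeR adjusted p = 0.0446). Its call was lost with the wider margin (log2 fold change 2.83), and without the first Day 14 library the log2 fold change was 2.61.

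Other trophoblast regulators gave no call. GATA2, the partner of GATA3, gave 492 and 465 CPM and 138 and 218 CPM (log2 fold change -1.49, standard error 0.25, edgeR adjusted p = 0.0518), just outside the threshold. TFAP2A, an AP-2 factor of trophoblast and surface ectoderm, gave 125 and 102 CPM and 102 and 141 CPM, and its days overlapped. GCM1, the factor that drives fusion into syncytiotrophoblast, gave 87.5 and 89.9 CPM and 135 and 106 CPM (log2 fold change 0.42, standard error 0.25, edgeR adjusted p = 0.407). PPARG, a nuclear receptor needed for placental development, gave 147 and 175 CPM and 255 and 201 CPM (log2 fold change 0.48, standard error 0.26, edgeR adjusted p = 0.360).

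The calls among epithelial and cytotrophoblast transcripts were all falls. Of 21 genes listed 18 were tested, 5 passed and all 5 were lower at Day 14 (27.8% against 1.5% of all genes), with a median log2 fold change of -1.23. S100A14, a calcium-binding protein of epithelia (ENSMFAG00000000381), stood at 291 and 324 CPM at Day 10 and 1.96 and 1.59 CPM at Day 14 (log2 fold change -7.44, standard error 0.32, edgeR adjusted p = 0.00739). Its neighbour in the same family, S100A16 (ENSMFAG00000032020), stood at 352 and 422 CPM and 3.24 and 14.0 CPM (log2 fold change -5.60, standard error 0.73, edgeR adjusted p = 0.0385). Neither gene overlapped between days, and an S100A14 UMI was found in 35.0% and 46.2% of thinned cells at Day 10 and in 1.46% and 2.18% at Day 14. The falls were not confined to the members. In the cells that scored highest for epiblast, S100A14 stood at 238 and 169 CPM at Day 10 and 1.78 and 2.22 CPM at Day 14. S100A16 stood there at 206 and 180 CPM and 10.4 and 5.92 CPM. Cells near the cut carried part of the Day 10 level. With the wider margin S100A14 stood at 118 and 196 CPM at Day 10, against 291 and 324 CPM in all members, and its fall still passed (log2 fold change -6.49). The log2 fold change of S100A16 was -4.93 without the first Day 14 library and -6.82 without the second.

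CXADR, the coxsackie and adenovirus receptor of tight junctions, stood at 31.7 and 51.4 CPM and 7.71 and 5.23 CPM (log2 fold change -2.68, standard error 0.39, edgeR adjusted p = 0.0414). EPCAM, the epithelial adhesion molecule, stood at 254 and 309 CPM and 70.1 and 111 CPM (log2 fold change -1.69, standard error 0.26, edgeR adjusted p = 0.0447). In the cells that scored highest for epiblast, CXADR stood at 184 and 191 CPM at Day 10 and 176 and 147 CPM at Day 14. EPCAM stood there at 419 and 327 CPM and 284 and 251 CPM. S100A16, CXADR and EPCAM did not pass with the wider margin, where their log2 fold changes were -4.69, -1.84 and -1.30. BCAM, a laminin-binding adhesion molecule, was the remaining call of the list, was named after its values were seen, and stood at 110.4 and 125 CPM and 18.3 and 38 CPM. KRT8 and KRT18, the keratin pair of simple epithelia, gave log2 fold changes of -1.43 and -1.24 without passing (edgeR adjusted p = 0.0622 and 0.0802). PAGE4, a marker of villous cytotrophoblast, gave 268 and 33.6 CPM at Day 10 and 939 and 702 CPM at Day 14, and the Day 10 libraries differed from each other more than the Day 14 libraries did (log2 fold change 2.40, standard error 0.96, edgeR adjusted p = 0.226).

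KHDC1L, OOEP and DNMT3L fell among the naive and maternal-effect genes. All 13 listed genes were tested and had negative log2 fold changes, with a median of -2.93, and 3 passed (23.1% against 1.5% of all genes). KHDC1L, a KH-domain gene of the early embryo (ENSMFAG00000034121), stood at 245 and 335 CPM and 20.2 and 18.3 CPM (log2 fold change -3.94, standard error 0.28, edgeR adjusted p = 0.0172). The Day 14 libraries were nearly equal, and a KHDC1L UMI was found in 73.1% and 89.2% of thinned members at Day 10 and 12.5% and 13.9% at Day 14. OOEP, a part of the maternal subcortical complex of the oocyte, stood at 27.8 and 44.1 CPM and 2.25 and 5.16 CPM (log2 fold change -3.36, standard error 0.45, edgeR adjusted p = 0.0400). DNMT3L, the inactive partner of the de novo DNA methyltransferases, stood at 96.3 and 76.3 CPM and 6.84 and 17.2 CPM (log2 fold change -2.93, standard error 0.44, edgeR adjusted p = 0.0447), and did not pass with the wider margin (log2 fold change -2.39). Without the second Day 14 library it was -3.58.

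The 3 called genes were not confined to trophoblast, and neither were their falls. In the cells of the Day 10 libraries that scored highest for epiblast, KHDC1L stood at 696 and 1134 CPM, OOEP at 360.2 and 319 CPM and DNMT3L at 172 and 187 CPM, above the members. At Day 14 such cells held 14.7 and 15.5 CPM of KHDC1L, 75.1 and 18.9 CPM of OOEP and 8.58 and 29.6 CPM of DNMT3L. NLRP7 and NLRP2, maternal-effect genes of the NLRP family, gave log2 fold changes of -5.81 and -3.27 without passing (edgeR adjusted p = 0.0523 and 0.0518). DPP4, a cell-surface peptidase, gave 7.25 and 15.3 CPM and 0.0785 and 0.543 CPM (log2 fold change -5.55, standard error 0.97, edgeR adjusted p = 0.0537).

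Hormone and steroid genes outside the defining set gave 1 call among 13 tested of 26 listed (7.69% against 2.73% of all genes and 9.86% of tested genes with a symbol). Their median log2 fold change was 1.37 (0.003 over all genes). GAL, the neuropeptide galanin, stood at 12.1 and 8.99 CPM and 117 and 62.9 CPM (log2 fold change 3.08, standard error 0.45, edgeR adjusted p = 0.0424), and a UMI of it was found in 10.9% and 8.14% of thinned cells at Day 10 and 63.5% and 42.3% at Day 14. HSD17B2, which inactivates oestradiol and testosterone, gave 1.31 and 0.241 CPM at Day 10 and 379 and 40.8 CPM at Day 14, with Day 14 libraries that differed severalfold from each other (log2 fold change 8.15, standard error 1.58, edgeR adjusted p = 0.0620). FDX1, the ferredoxin that feeds electrons to steroidogenic enzymes, gave 166 and 269 CPM and 609 and 533 CPM (log2 fold change 1.37, standard error 0.31, edgeR adjusted p = 0.0774). NPPB, the brain natriuretic peptide, gave 525 and 517 CPM and 846 and 2245 CPM (log2 fold change 1.49, standard error 0.43, edgeR adjusted p = 0.123). CALCB, a calcitonin gene-related peptide named here for its size of change, stood at 36.2 and 14.6 CPM and 1623 and 529 CPM (log2 fold change 5.41, standard error 0.86, edgeR adjusted p = 0.0483). Without the first Day 14 library the log2 fold change of GAL was 2.44 and that of CALCB 4.23, and CALCB gave 6.06 without the second and 6.26 without the first Day 10 library.

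Actin-regulating genes changed in both directions. All 27 cytoskeletal and adhesion genes listed were tested, 3 rose and 2 fell (18.5% called against 2.73% of all genes, 1.22% higher and 1.5% lower), and the median log2 fold change was 0.65. TMSB4X, thymosin beta 4, which sequesters actin monomers (ENSMFAG00000043121), stood at 1055 and 991 CPM and 119 and 172 CPM (log2 fold change -2.87, standard error 0.25, edgeR adjusted p = 0.0210). Both Day 10 libraries lay far above both Day 14 libraries, and the same gene stood at 848 and 855 CPM in the cells that scored highest for epiblast at Day 14. Its paralogue TMSB10 gave 9076 and 10582 CPM and 13119 and 2843 CPM, with overlapping days. CNN3, a calponin, fell from 91.1 and 105 CPM to 34.7 and 39.2 CPM (log2 fold change -1.45, standard error 0.20, edgeR adjusted p = 0.0414), although the call was lost with the wider margin (log2 fold change -1.13).

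TAGLN, an actin cross-linker of contractile cells, rose from 8.25 and 8.85 CPM to 334 and 161 CPM (log2 fold change 4.86, standard error 0.50, edgeR adjusted p = 0.0275), and ANXA3, a calcium-dependent membrane-binding annexin, from 6.59 and 8.93 CPM to 46.4 and 35.4 CPM (log2 fold change 2.38, standard error 0.31, edgeR adjusted p = 0.0385). Without the first Day 14 library TAGLN gave a log2 fold change of 4.10. ANXA1, another annexin, gave 0.587 and 0.214 CPM and 389 and 42.2 CPM and missed the threshold, with Day 14 libraries that differed severalfold (log2 fold change 9.15, standard error 1.52, edgeR adjusted p = 0.0503). VIM, the intermediate filament of mesenchyme, also passed and was looked at after its values were seen. It stood at 0.483 and 0.0803 CPM at Day 10 and 9.21 and 16.5 CPM at Day 14, against 0 and 7.25 CPM in the Day 12 libraries, of which the first held 0 cells that scored highest for mesenchyme and the second 190. A VIM UMI was found in 2.24% and 3.05% of Day 14 members, against 69.8% and 86.7% of cells that scored highest for epiblast, and the part of other cells in this sum was not tested.

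Matrix and basement membrane genes gave 1 call, a fall, among 19 tested of 20 (5.26% against 2.73% of all genes), with a median log2 fold change of 1.37. Mesenchyme markers outside the rule, whose cells make much matrix, summed to 8.11 and 14.7 CPM in the members at Day 10 and to 18.6 and 60.8 CPM at Day 14, and their part in these values was not tested. COL18A1, a basement membrane collagen, stood at 14.5 and 30.1 CPM and 1.42 and 2.79 CPM (log2 fold change -3.48, standard error 0.50, edgeR adjusted p = 0.0414), and did not pass with the wider margin (log2 fold change -3.07). Its log2 fold change was -2.89 without the second Day 10 library and -3.12 without the first Day 14 library. TGFBI gave no UMI at Day 10 and 0.471 and 0.349 CPM at Day 14, and did not pass. Among 24 tested growth factor and signalling genes, WNT7A, a WNT ligand known from early trophoblast (ENSMFAG00000044809), was the only call (4.17% against 2.73% of all genes). It stood at 9.80 and 7.41 CPM and 124 and 112 CPM (log2 fold change 3.74, standard error 0.29, edgeR adjusted p = 0.0181), and a UMI of it was found in 6.85% and 8.14% of thinned cells at Day 10 and 60.3% and 53.1% at Day 14. BMP4, a morphogen, gave 0.449 and 0.562 CPM and 13.5 and 4.46 CPM (log2 fold change 4.17, standard error 0.73, edgeR adjusted p = 0.0540), and IGFBP3, a carrier of insulin-like growth factors, gave 0.207 and 0.187 CPM and 128 and 10.6 CPM (log2 fold change 8.50, standard error 1.58, edgeR adjusted p = 0.0586).

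A pair of immune regulators on the cell surface rose. Of 13 tested genes of the interferon and immune list 2 passed, both higher (15.4% against 1.22% of all genes). CD47, the signal that restrains phagocytes, stood at 20.8 and 17.1 CPM and 101 and 86.7 CPM (log2 fold change 2.28, standard error 0.27, edgeR adjusted p = 0.0308). VSIR, the checkpoint receptor VISTA, stood at 6.49 and 2.30 CPM and 88.3 and 67.5 CPM (log2 fold change 4.12, standard error 0.60, edgeR adjusted p = 0.0426). The days did not overlap for either gene. The log2 fold change of VSIR was 5.10 without the first Day 10 library and 3.53 without the second. CD55 and CD59, which protect cells from complement, gave log2 fold changes of 3.03 and 1.45 without passing (edgeR adjusted p = 0.0523 and 0.0631).

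PFKFB4 and SGK1 fell and CALU rose among metabolic and secretory genes. PFKFB4, a regulator of glycolysis, was the 1 call among 26 tested hypoxia and glycolysis genes (3.85% against 2.73% of all genes) and fell from 13.7 and 12.7 CPM to 2.87 and 4.03 CPM (log2 fold change -1.99, standard error 0.30, edgeR adjusted p = 0.0440). SGK1, a kinase induced by serum and glucocorticoids, fell from 154 and 120.5 CPM to 40.5 and 39.2 CPM (log2 fold change -1.82, standard error 0.25, edgeR adjusted p = 0.0414). CALU, a calcium-binding protein of the secretory pathway, rose from 77.8 and 90.3 CPM to 256 and 232 CPM (log2 fold change 1.51, standard error 0.23, edgeR adjusted p = 0.0447). With the wider margin its log2 fold change was close (1.48), but the call was lost. SGK1 and CALU were the 2 calls among 20 tested endoplasmic reticulum and stress genes (10%), where 2.73% of all genes were called.

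MBOAT2, a lysophospholipid acyltransferase, was the 1 call among 15 tested lipid genes (6.67% against 2.73% of all genes) and fell from 14.3 and 20.4 CPM to 1.30 and 0.814 CPM (log2 fold change -4.00, standard error 0.43, edgeR adjusted p = 0.0285), although the call was lost with the wider margin (log2 fold change -3.10). MEST, an imprinted gene of the hydrolase family, rose from 86.2 and 86.0 CPM to 198 and 257 CPM (log2 fold change 1.35, standard error 0.20, edgeR adjusted p = 0.0447), 1 call of 5 tested (20% against 2.73%). With the batch as a block the edgeR adjusted p of PFKFB4 was 0.05003 (range over all alternatives 1.6e-06 to 0.283) and that of MEST 0.05003 (2.58e-05 to 0.339), both at the threshold. PHLDA2, an imprinted growth restrainer of placenta, gave 40.5 and 37.4 CPM and 295 and 84.0 CPM (log2 fold change 2.30, standard error 0.66, edgeR adjusted p = 0.118).

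Among 25 cell cycle genes, all tested, edgeR called 0, and the median log2 fold change was -0.21. The share called was 2.73% over all genes and 9.86% over tested genes with a symbol. An unadjusted p under 0.05 was reached by 8 of the 25 (22.7% of all genes), and DESeq2 called 6 (1806 of all 12365 genes). MKI67, the standard marker of cycling cells, gave 113 and 164 CPM at Day 10 and 80.0 and 130.01 CPM at Day 14 (log2 fold change -0.45, standard error 0.28, edgeR adjusted p = 0.431), and the days overlapped. CDKN1C, an imprinted inhibitor of the cycle abundant in placenta, gave 3515 and 2439 CPM and 9699 and 4177 CPM (log2 fold change 1.22, standard error 0.53, edgeR adjusted p = 0.259). Of 13 nutrient and ion transport genes edgeR called 0 (2.73% of all genes), but 8 had an unadjusted p under 0.05, above the 22.7% of all genes, and DESeq2 called 8. Of 5 metallothionein genes edgeR called 0 (2.73% of all genes), with 2 at an unadjusted p under 0.05 (22.7% of all genes) and 2 called by DESeq2 (1806 of all 12365 genes). Of 13 mitochondrially encoded genes edgeR called 0, with 0 at an unadjusted p under 0.05 and 0 called by DESeq2, against the same shares of all genes.

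**Figure D4:**
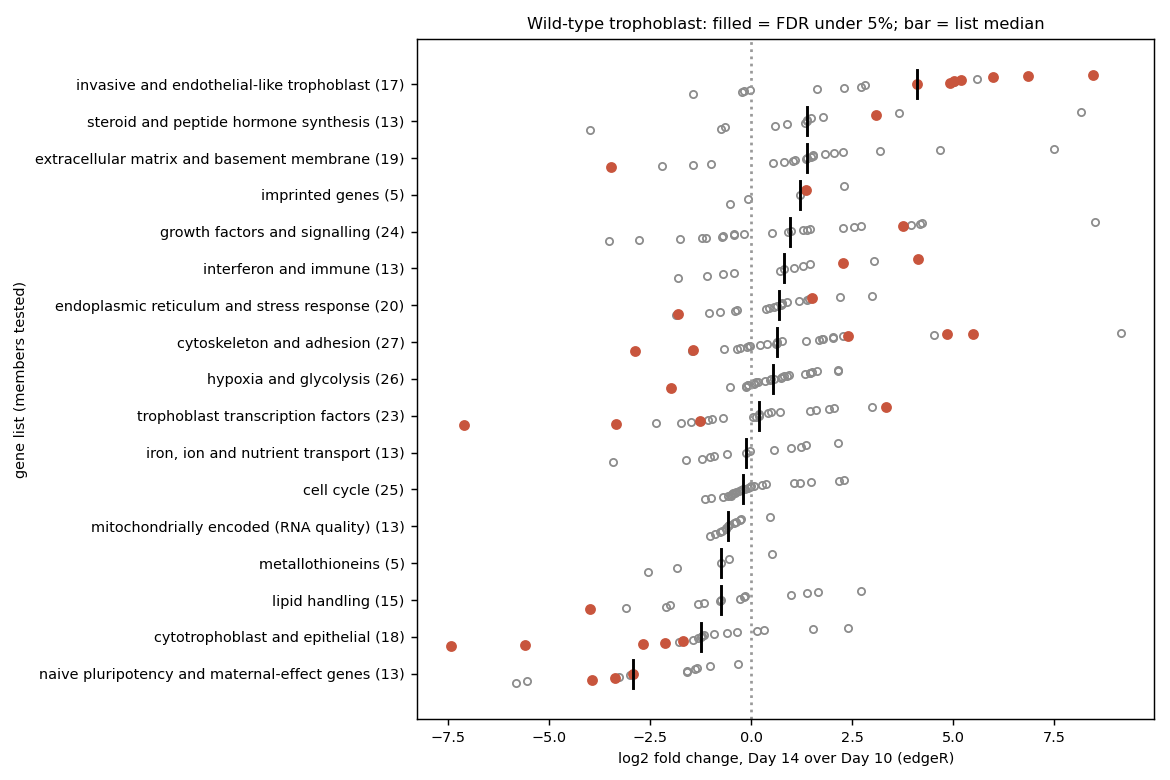
Log2 fold change, Day 14 over Day 10 (x axis, edgeR), of every tested member of 17 gene lists (y axis, number tested in parentheses), 1 circle per gene, filled where the false discovery rate was under 5%, with a bar at the list median and a dotted line at the median of all genes. The invasive list has a median of 4.11 and 7 filled circles on the right, the epithelial list 5 filled circles on the left, and the cell cycle list none.

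The largest changes included genes of no list. CAMK2N1, an inhibitor of the kinase CaMKII (ENSMFAG00000041772), stood at 83.2 and 159.7 CPM and 0.189 and 0.620 CPM (log2 fold change -8.52, standard error 0.69, edgeR adjusted p = 0.0184), the largest fall among called genes with a symbol and a mean of at least 10 CPM. In the cells that scored highest for epiblast it was lower at Day 14 too (63.0 and 42.7 CPM against 3.68 and 15.9 CPM). SLC9A3R1, the scaffold protein NHERF1 of microvilli, stood at 346 and 405 CPM and 25.8 and 48.7 CPM (log2 fold change -3.40, standard error 0.33, edgeR adjusted p = 0.0249). SH3BGRL2, a small SH3-binding protein, had a log2 fold change of -4.30 and LOC101865018 one of -3.81 (edgeR adjusted p = 0.0288 and 0.0406). With the wider margin LOC101865018 lost its call (log2 fold change -2.59) and SH3BGRL2 kept it (-3.41). Without the first Day 14 library LOC101865018 gave -4.72 and CAMK2N1 -7.73, and without the second CAMK2N1 gave -9.23. CLU, the extracellular chaperone clusterin (ENSMFAG00000041649), rose from 1.17 and 1.12 CPM to 66.3 and 67.1 CPM (log2 fold change 5.82, standard error 0.27, edgeR adjusted p = 0.00739). Its libraries were nearly equal within each day. A CLU UMI was found in 1.78% and 1.16% of thinned members at Day 10 and 33.9% and 36.4% at Day 14, and the gene was as frequent in other cells, with an unthinned 75.7% and 48.7% of cells that scored highest for epiblast at Day 14 against 57.7% and 55.1% of members.

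Summed markers of epiblast were lower in the members at Day 14, those of mesenchyme were higher, and those of endoderm differed between lists. The 5 epiblast genes of the rule summed to 291 and 370 CPM at Day 10 and to 78.8 and 90.8 CPM at Day 14, its 6 endoderm genes to 127 and 235 CPM and to 14.7 and 6.09 CPM, and its 7 mesenchyme genes to 18.4 and 11.6 CPM and to 20.8 and 80.3 CPM, values given without a test because these genes chose the cells. Of 8 epiblast markers outside the rule, edgeR called 0 of 7 tested (0 at an unadjusted p under 0.05 and 0 by DESeq2), and their summed level was 364 and 311 CPM at Day 10 and 204 and 267 CPM at Day 14. Over all genes edgeR called 2.73%, 22.7% had an unadjusted p under 0.05 and DESeq2 called 1806 of 12365. The 9 mesenchyme markers summed to 8.11 and 14.7 CPM at Day 10 and to 18.6 and 60.8 CPM at Day 14. LUM, a matrix proteoglycan among them, gave 0.0345 and 0 CPM and 0.330 and 9.81 CPM. PITX1, a homeobox factor shared with mesenchyme, was the 1 call of 6 tested (16.7% against 2.73% of all genes) and rose from 1.38 and 1.42 CPM to 12.7 and 38.9 CPM (log2 fold change 4.11, standard error 0.57, edgeR adjusted p = 0.0414). Its call was lost with the wider margin (log2 fold change 3.21), and the log2 fold change was 3.25 without the second Day 14 library. PITX1 stood at 12.0 CPM in the first Day 12 library, where LUM gave no UMI. That library held 0 cells that scored highest for mesenchyme and 16 that scored highest for endoderm. The study reports both PITX1 and LUM in both of these cell types, and the part of such cells in the PITX1 level was not tested. The 9 endoderm markers outside the rule summed to 4.45 and 3.32 CPM at Day 10 and to 31.1 and 16.3 CPM at Day 14, where COLEC11, a collectin looked at after its values were seen, was the 1 call of 2 tested (2.73% of all genes; 1.79 and 0.990 CPM and 29.6 and 15.2 CPM). Amnion and mesoderm markers gave 0 calls of 4 and 3 tested, with 0 at an unadjusted p under 0.05 and 0 called by DESeq2. The part of these levels in the results was not tested.

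The wild-type Day 12 libraries were nearer to Day 14 for most called genes. On the log2(CPM + 0.5) scale they were closer to the Day 14 than to the Day 10 mean for 76.6% and 85.9% of the 334 called genes outside the defining sets, and for 58.9% and 59.8% of all genes tested. CDX2 stood at 0.0472 and 0.714 CPM at Day 12 and S100A14 at 14.3 and 9.78 CPM, both far under Day 10. LAIR2 stood at 393 and 323 CPM and CDH5 at 125 and 102 CPM, the latter level with Day 14. Of the 40 genes named by rule, 34 and 36 were nearer to Day 14. PFKFB4, at 13.1 and 8.42 CPM, and GATA3, at 349 and 303 CPM, were nearer to Day 10 in both Day 12 libraries. In the first library so were SGK1, which at 193 CPM lay above both Day 10 values, DNMT3L, ANXA3 and TIMP1, and in the second OOEP, at 36.9 CPM, and CDX1, at 16.4 CPM. With the Day 12 libraries in the fit, OOEP, DNMT3L, SGK1 and EPCAM did not pass.

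The mutant Day 10 library did not resemble the wild-type Day 10 libraries. It lay closer to the wild-type Day 14 mean for 86.5% of the 334 genes, against 61.7% of all genes tested, and for 37 of the 40 genes named by rule. It had 2.41 CPM of CDX1, 4.33 CPM of S100A14, 355 CPM of LAIR2 and 113 CPM of CDH5. Between Day 10 and Day 14 the mutant libraries changed in the wild-type direction for 258 of 334 genes (77.2%, against 64.9% of all genes tested). The 334 genes were chosen by their wild-type change, so sizes of change are not compared between the genotypes. Effects of day, of genotype and of whatever else sets apart the wild-type Day 10 pools cannot be told apart with 1 mutant library at that day. A direct test of the difference between the day effects of the genotypes called 36 of 15096 genes (0.238%), 27 of them among the 337.

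**Figure D5:**
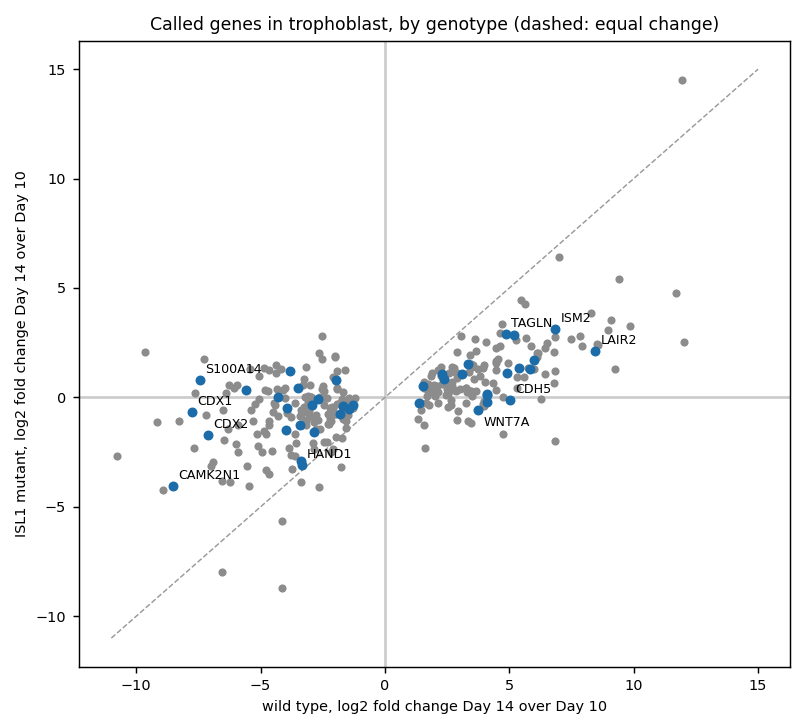
Log2 fold change, Day 14 over Day 10, in wild-type (x axis) and ISL1 mutant (y axis) trophoblast for the called genes outside the defining sets, 1 point per gene, blue for genes named by rule, with equal change dashed. Most points lie between the horizontal axis and the dashed line, which the choice of genes by their wild-type change favours, and the farthest point at the upper right is a gene with no UMI in any of these Day 10 libraries.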

How the data were processed

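Single-cell RNA-seq libraries (Chromium 3ʹ v3) of 11 samples were available, of which 4 (wild-type Day 10 and Day 14) were compared. The authors aligned and counted UMIs with Cell Ranger 3.1.0 (version per the labels), filtered cells, and removed ambient RNA with SoupX. The deposited corrected matrix holds expected counts, which need not be whole, of 19367 genes and was the main source, with sums rounded to whole numbers. The deposited uncorrected counts were an alternative. Gene symbols for 1020 identifiers came from the study's tables.

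UMIs of the selected cells were summed per library, filtered with filterByExpr, scaled by TMM and fitted with glmQLFit and glmQLFTest (edgeR 4.0.16, R 4.3.3). All adjusted p-values are Benjamini-Hochberg values over all tested genes, with a threshold of 0.05. DESeq2 1.42.0 was an alternative. On simulated data for this comparison (12365 genes) the fit recovered 4% of genes changed by 1 and 48% of genes changed by 2 on the log2 scale, with 2 false calls, so smaller changes were mostly not detectable with 2 libraries per day.

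The labels give the wild-type libraries shared batches. Same-batch libraries deviated together weakly (correlation 0.102), and fits with the batch as a block are given where a named gene lost its call. Calls gained with the block are given as counts only, with 56 list members called against 34 without it. Named genes were at most 4 called members per list by p, and the 10 largest rises and falls among called genes with a symbol, a mean of at least 10 CPM and no overlap between days. Genes named otherwise are uncalled or defining genes given as values, or are said to have been chosen after their values were seen. The members and lists were chosen with earlier results of these data known. Of 393 list symbols, 28 had no identifier. Alternatives changed the scaling, the filter, the tool, the ambient correction, the block, the Day 12 libraries, the cells taken and each library in turn.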

Additional observations from a re-analysis of the deposited data

Results flagged for a closer look

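For 6 named genes the change from Day 10 to Day 14 differed between wild-type and ISL1 mutant trophoblast by a direct edgeR test over 15096 genes. The test was chosen after the data were seen, rests on 1 mutant Day 10 library, and is given as the wild-type log2 change minus the mutant one. The genes were named by their wild-type change in the same libraries, which favours a large difference. The sizes below are therefore values and no independent evidence of a difference between genotypes. S100A14 gave -8.22 (standard error 1.18, edgeR adjusted p = 0.043), from -7.44 in the wild type and 0.796 in the mutant. LAIR2 gave 6.34 (0.899, edgeR adjusted p = 0.043), from 8.46 and 2.12. CDH5 gave 5.14 (0.661, edgeR adjusted p = 0.0368), from 5.02 and -0.111. CLU gave 4.54 (0.405, edgeR adjusted p = 0.0142), from 5.82 and 1.29. CLEC1A gave 4.31 (0.578, edgeR adjusted p = 0.0375), from 4.11 and -0.201. WNT7A also gave 4.31 (0.574, edgeR adjusted p = 0.0375), from 3.74 and -0.554. In all 6 the Day 14 levels of the genotypes were closer on the log2 scale than their Day 10 levels. Without the Day 12 libraries, which help to set the spread, 2 genes passed in all.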

How the results depend on the processing

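The number of genes called between Day 14 and Day 10 (337) was 1527 with no low-count filter, 1879 with DESeq2, 509 with the Day 12 libraries in the fit and 5 at a false discovery rate of 1%, and ranged from 0 to 1296 when each library was left out in turn. It was 0 without either Day 10 library and 1296 without the second Day 14 library. With the replicate block it was 521, and the calls of GATA3, PFKFB4 and MEST were lost, while no other named gene lost its call. The 34 called list members became 115 with no filter, 131 with DESeq2, 56 with the replicate block and 22 with the wider margin, and ranged from 0 to 111 without single libraries. The 36 calls for the difference between genotypes became 168 with no filter, 9 with the wider margin, 78 with the cells whose trophoblast or epiblast score was highest and that held no POU5F1 UMI (chosen after seeing the data; this removes members and adds other cells) and 2 without the Day 12 libraries, and ranged from 0 to 147 without single libraries, with 0 reached without the second wild-type Day 10 or the second mutant Day 14 library (1433 and 1353 genes at an unadjusted edgeR p under 0.05).

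All 40 named genes kept their direction under each alternative that gave a value, and all 40 lost the call without either Day 10 library, where 1 library stands for Day 10 and is assumed to vary like Day 14. The kept directions were nearly fixed in advance, as the days did not overlap for these genes and the alternatives reuse the same libraries. The wider margin, which also leaves fewer cells, ended 13 calls. Without the first Day 14 library COL18A1, PFKFB4, EPCAM, CNN3, GATA3 and CALU lost the call. GATA3 also lost it with DESeq2 size factors, with uncorrected counts and with that other set of cells, as did CXADR with equal numbers of cells and CALCB with that other set. TIMP1 was not tested under the minimum of 10 CPM. Apart from what fewer samples or genes fix by construction, the cause was not tested.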
